A study of Rattus norvegicus with 6 samples.

Results

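Respiratory complex I is represented in these liver libraries by 42 genes, chosen as every gene whose symbol starts with Nduf, out of 33022 loci. They are 31 nuclear-encoded subunits (7 core and 24 accessory), the 7 assembly factors Ndufaf1 to Ndufaf7, Ndufa4 and Ndufa4l2, which are no longer counted as complex I subunits, and the gene copies Ndufb4l1 and Ndufv3-ps1. Ndufa13 lay on 2 loci, and the locus with the higher mean was used. Ndufb6 shared its locus with Topors, so that its value is that of a merged locus. Ndufa3, Ndufa12, Ndufab1, Ndufb1, Ndufb4, Ndufs6 and Ndufaf8 were not analysed here.

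RNA came from the livers of male obesity-prone Sprague Dawley rats of 160 to 190 g that were given either the control diet (CD; TD 08485) or the Western diet (WD; TD 88137), which is rich in milk fat and sucrose, for 2 weeks. All rats were fasted overnight and then refed their own diet before the liver was taken. For each diet there was 1 library of total RNA, 1 of the light part of a sucrose gradient (mRNA carrying 3 ribosomes at most) and 1 of the heavy part (mRNA carrying at least 4), and each library pooled the RNA of 3 rats. With 1 library per condition no difference was tested between diets, and the intervals below compare libraries.

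Complex I is the largest enzyme of the respiratory chain. It oxidizes NADH, passes the electrons along a row of iron-sulfur clusters in its matrix arm to ubiquinone, and uses the energy to pump protons through its membrane arm. The core subunits of the matrix arm are encoded in the nucleus and those of the membrane arm in mitochondrial DNA, whereas the accessory subunits surround the core and the assembly factors build the enzyme without staying in it. In the liver it reoxidizes the NADH made by the oxidation of fatty acids.

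Promoters are shown first because several subunits share a sequence just after the transcription start. Of the 40 genes looked for, 36 had an entry among the RefSeq promoters of rat assembly GRCr8, each of which runs from 250 bases before to 50 bases after the start, and Ndufa8, Ndufb9 and Ndufaf6 were among those that had none. The letters AAGATGGC, the core of a binding site of the factor YY1, occurred on either strand in 6 of 28 subunit promoters (21.4%) and in 6.08% of the 7205 promoters of the loci compared. In each of the 6, which belong to Ndufa2, Ndufa6, Ndufa9, Ndufb8, Ndufs4 and Ndufs7, the letters lay on the strand of the gene and began between 5 and 27 bases after the start. There they are part of the transcribed sequence and include an ATG, and whether they serve as a site of YY1 was not tested. The following 60 bases, with the start at base 31, are the windows of chr7:115750288-115750347 (minus strand), chr4:161374141-161374200 (minus), chr1:253362907-253362966 (minus), chr2:47794885-47794944 (minus) and chr7:10110469-10110528 (minus), in this order, with AAGATGGC in capitals.
Ndufa6: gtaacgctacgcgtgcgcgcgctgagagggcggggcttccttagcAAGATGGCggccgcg
Ndufa9: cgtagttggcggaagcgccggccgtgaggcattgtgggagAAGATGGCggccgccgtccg
Ndufb8: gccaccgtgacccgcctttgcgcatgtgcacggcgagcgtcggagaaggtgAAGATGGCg
Ndufs4: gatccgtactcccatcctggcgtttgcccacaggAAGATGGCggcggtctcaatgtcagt
Ndufs7: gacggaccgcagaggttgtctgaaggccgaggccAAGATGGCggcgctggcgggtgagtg

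None of the 6 promoters of assembly factors held AAGATGGC. CCGGAAG, a core of ETS family sites, occurred on either strand in 25.0% of subunit promoters and 18.7% of the promoters of loci compared. The palindromic site of NRF1, of 10 letters, occurred in the promoters of Ndufa11, Ndufaf4 and Ndufaf5, that is in 1 of 28 subunits and 2 of 6 assembly factors, and in 2.18% of the promoters of loci compared. CAAGGTCA, a site of the estrogen-related receptors, occurred in that of Ndufs5 and in 0.708% of the promoters of loci compared. A tract of pyrimidines at the very 5′ end of an mRNA is the feature through which mTORC1 adjusts the translation of ribosomal protein mRNAs, and it was looked for on the strand of the gene. No subunit promoter started with C followed by 4 pyrimidines, against 2.75% of the promoters of loci compared, and 46.4% against 48.6% had a run of at least 4 pyrimidines within the first 20 bases. The windows of 4 subunits whose light fraction value in WD exceeded that in CD beyond counting error are shown with such runs in capitals, for Ndufs5 (chr5:141264373-141264432, minus strand), Ndufa7 (chr7:15311416-15311475, plus), Ndufb10 (chr10:14255937-14255996, minus) and Ndufv2 (chr9:113157491-113157550, minus).
Ndufs5: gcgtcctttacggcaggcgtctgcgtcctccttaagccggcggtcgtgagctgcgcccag
Ndufa7: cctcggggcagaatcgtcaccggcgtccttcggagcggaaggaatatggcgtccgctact
Ndufb10: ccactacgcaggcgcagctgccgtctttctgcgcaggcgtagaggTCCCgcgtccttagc
Ndufv2: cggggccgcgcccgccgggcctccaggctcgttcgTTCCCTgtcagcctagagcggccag

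These 4 windows have no start of the classical form in common, and those of Ndufs5 and Ndufa7 have no run of that length in the first 20 bases after the annotated start.

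Values are FPKM, fragments per kilobase of transcript, scaled to the depth of the library, so that levels can be compared between genes. Loci were compared where the mean over the 6 libraries was at least 1 FPKM, which left 10201 loci and 38 of the 42 members. The other 4, Ndufa1, Ndufa4l2, Ndufb4l1 and Ndufv3-ps1, were listed at 0 in every library. Since Ndufa1 is an essential small subunit of the membrane arm, its 0 says only that no value was listed. The fragments behind the values could be inferred for 29 of the 38 and for 54.4% of all loci compared, with a median of 7 to 20 fragments per locus and library, and the WD light library was the deepest, at 2.34 times the CD heavy library against 1 to 1.57 for the others. The 29 comprise 22 subunits and the 7 assembly factors. Hepatocyte markers such as Alb summed to between 42787 and 129327 FPKM per library.

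Subunit mRNAs were abundant and those of the assembly factors were scarce. The median of the mean levels was 51.6 FPKM over the 30 subunits compared and 3.10 FPKM over the 7 assembly factors, a ratio of 16.7, and it was 7.00 FPKM over all loci. Of the subunits, 29 lay above the median of all loci, whereas 5 of the 7 assembly factors lay below it. The ranges met at 1 gene, since the core subunit Ndufs3, at a mean of 6.68 FPKM, was below the assembly factors Ndufaf1 (11.9 FPKM) and Ndufaf3 (7.70 FPKM). The subunits of the same enzyme spanned a wide range although they are present once each in the complex, and no stoichiometry can be read from these levels.

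**Figure D1:**
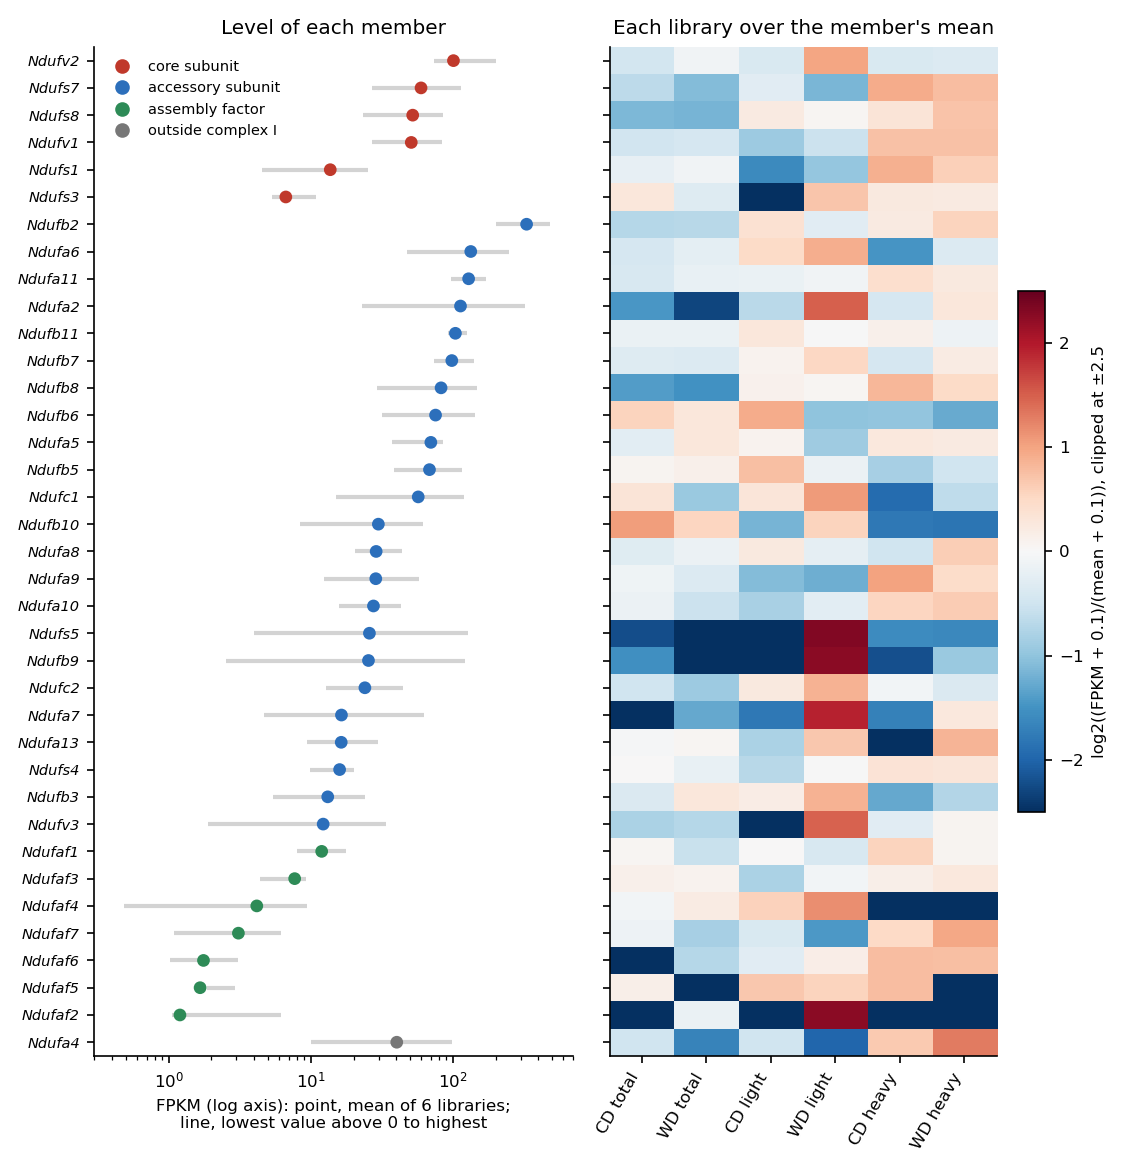
Level of 37 of the 38 genes compared. On the left, the point is the mean FPKM of 6 libraries on a log axis and the line runs from the lowest value above 0 to the highest, coloured by class. On the right, the colour gives each library against the gene's own mean on the log2 scale, and the WD light column is red for Ndufs5, Ndufb9, Ndufa7, Ndufv3 and Ndufa2.

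The most abundant was Ndufb2, a small accessory subunit of the membrane arm (chr4:67378187-67385266 in Rnor_6.0), with 203 FPKM in CD total RNA and 205 in that of WD, 432 and 273 in the light fractions, and 389 and 485 in the heavy fractions. It was followed by Ndufa6, a subunit of the matrix arm that binds an acyl carrier protein, with 99.7 and 113 FPKM in total RNA, 186 and 249.8 in the light and 47.9 and 106 in the heavy fractions. Ndufa11, of the membrane arm, had 97.8 and 114 FPKM in total RNA, 116 and 122 in the light and 172 and 154 in the heavy fractions. Ndufa6 thus had its highest values in the light fractions and Ndufa11 in the heavy ones. At the other end of the subunits were Ndufs3, Ndufv3 (a mean of 12.2 FPKM) and Ndufb3 (13.2 FPKM).

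The core subunits bind the cofactors. Ndufv1, which holds the flavin and the NADH site, had 36.5 FPKM in CD total RNA and 38.1 in that of WD, 27.1 and 35.4 in the light and 84.5 and 84.4 in the heavy fractions. Ndufs1, the largest subunit, which carries several of the iron-sulfur clusters, had 11.9 and 12.9 FPKM in total RNA, 4.50 and 6.99 in the light and 25.4 and 20.7 in the heavy fractions. Ndufv2, which carries a cluster beside the flavin, had 73.7 and 95.7 FPKM in total RNA, 78.1 and 201 in the light and 77.9 and 80.0 in the heavy fractions. Ndufv1 and Ndufs1 were highest in the heavy fractions of both diets, whereas Ndufv2 was highest in the WD light fraction and close to level elsewhere.

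Ndufs7 lies at the site where ubiquinone is reduced. It had 38.1 FPKM in CD total RNA and 28.1 in that of WD, 49.2 and 27.2 in the light and 115 and 101 in the heavy fractions, and it was highest in the heavy fractions. Ndufs8, which carries clusters on the way to that site, had 23.99 and 23.4 FPKM in total RNA, 60.8 and 53.8 in the light and 65.3 and 85.9 in the heavy fractions. Ndufs3, which holds the ubiquinone module together, had 8.11 and 5.30 FPKM in total RNA, was listed at 0 in CD and at 10.9 in WD light, and had 7.96 and 7.77 FPKM in the heavy fractions. Ndufs3 was the scarcest core subunit in the total RNA of both diets.

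In total RNA the diets gave much the same level of complex I mRNA. The subunits summed to 1437 FPKM in CD and 1404 FPKM in WD, and over the 22 subunits with inferred fragments the WD library held 607 fragments against 642, a ratio of 0.989 after scaling with a 95% interval of 0.883 to 1.11. The median log2 change over 30 subunits was -0.01, with 15 higher and 15 lower in WD, against 0.02 over all loci compared. Here and below a log2 change was computed after adding 0.1 FPKM, a ratio was taken without it, and intervals are exact binomial intervals of the fragments, which cover counting error only. In bulk tissue, fewer cells of a type and less RNA per cell cannot be told apart.

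A ratio of at least 1.5 was found for 2 of 30 subunits (17.7% of all loci) and a ratio of at most 0.75 for 8 (22.7% of all loci). After each library was scaled to the same sum of FPKM these counts were 3 (20.5% of all loci) and 5 (19.2%). The interval of the ratio lay above 1 in 2.91% and below 1 in 3.08% of all loci with fragments, and for none of the 29 complex I genes. Between CD and WD total RNA the subunits had between 2 and 135 fragments in the pair of libraries, so that only large differences could have been detected for the sparsest of them.

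Ndufb3, a small subunit of the membrane arm, had the highest ratio among subunits above 0 in both libraries. It had 10.3 FPKM in CD total RNA and 16.1 in that of WD, 15.1 and 24.2 in the light and 5.39 and 7.89 in the heavy fractions, a ratio of 1.57 (interval 0.499 to 5.35) in total RNA. Ndufa5, of the matrix arm, had 58.4 and 84.9 FPKM in total RNA, 74.2 and 37.6 in the light and 83.7 and 81.7 in the heavy fractions, a ratio of 1.45 (0.825 to 2.60) in total RNA. Both intervals include 1. The lowest ratio was that of Ndufc1, a short membrane subunit, with 71.8 and 30.02 FPKM in total RNA, 70.0 and 119 in the light and 15.0 and 36.7 in the heavy fractions, a ratio of 0.418 (0.133 to 1.14) from 15 and 6 fragments in total RNA. Ndufa7 was listed at 0 in CD and at 6.71 FPKM in WD total RNA, and Ndufb9 and Ndufs5 at 8.70 and 5.47 FPKM in CD and at 0 in WD. These 3 rest on 5 fragments or fewer in total RNA.

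**Figure D2:**
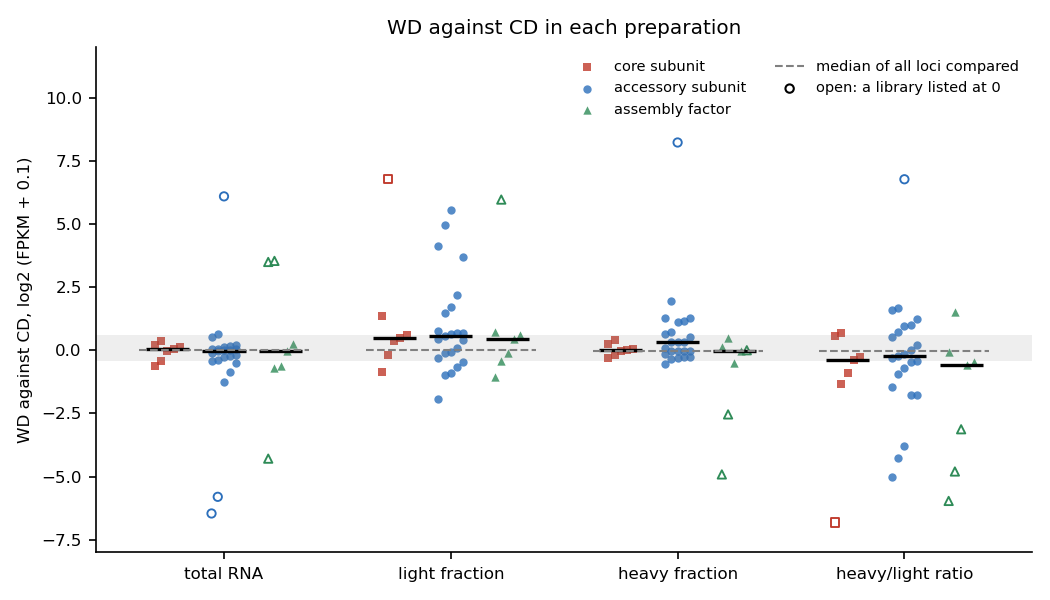
WD against CD for 30 subunits and 7 assembly factors, as log2 of FPKM with 0.1 added, in total RNA, in both gradient fractions and for the heavy to light ratio. Black bars are medians of each class, the dashed line is the median of all loci compared, the grey band spans ratios of 0.75 to 1.5, and open symbols have a library listed at 0. Total RNA lies mostly inside the band, whereas the light fraction spreads upward.

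The largest contrast lay in the light fraction, where subunit mRNAs stood higher in WD with the values as deposited. Their sum was 1964 FPKM in CD and 2538 in WD, and the 22 subunits with fragments had a scaled ratio of 1.35 (interval 1.22 to 1.497), from 501 and 1471 fragments. The median log2 change was 0.52 with 20 subunits higher and 10 lower, against 0.02 over all loci. The median was 0.50 over the 29 subunits above 0 in both light libraries. A ratio of at least 1.5 was found for 14 subunits (25.9% of all loci) and of at most 0.75 for 6 (26.8%).

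Part of this depends on the scale of the WD light library, whose sum over loci with a symbol was the highest of the 6 at 866676 FPKM, the others lying between 616030 and 699570 FPKM. Scaling every library to the same sum moved the median of all loci to -0.29 in the light fraction and that of the subunits to 0.17. Relative to all loci the subunits were then 0.46 higher on the log2 scale, as against 0.51 with the values as deposited. After that scaling 9 subunits were at or above 1.5 (17.3% of all loci) and 9 at or below 0.75 (44.2%). The scaling multiplies a light ratio of WD over CD by 0.783. The pooled ratio of 1.35 and its interval are those of the deposited values, and under that factor the interval spans equal levels.

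The highest light ratios were those of a few genes. Ndufb9, a membrane arm subunit of the LYR family, had 8.70 FPKM in CD total RNA and 0 in that of WD, 2.54 and 123 in the light and 5.47 and 13.3 in the heavy fractions. Ndufs5, which faces the intermembrane space, had 5.47 and 0 FPKM in total RNA, 4.00 and 129 in the light and 8.60 and 8.39 in the heavy fractions. Ndufa7, of the matrix arm, had 0 and 6.71 FPKM in total RNA, 4.69 and 62.6 in the light and 5.04 and 19.7 in the heavy fractions. In all 3 the WD light value stood far above each of the other libraries. The light ratio was 48.3 (8.48 to 1925) for Ndufb9, from 1 fragment in CD and 105 in WD. It was 32.2 (5.59 to 1289.5) for Ndufs5, from 1 and 70 fragments, and 13.3 (2.21 to 545) for Ndufa7, from 1 and 29.

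Ndufv2 gave the same direction on far more fragments, with 42 in CD and 235 in WD light and a ratio of 2.57 (1.85 to 3.66). Ndufb10, a subunit of the membrane arm with disulfide bridges facing the intermembrane space, had 61.7 and 43.7 FPKM in total RNA, 13.3 and 44.0 in the light and 8.56 and 8.35 in the heavy fractions, a light ratio of 3.31 (1.30 to 10.8). It is the only one of these whose highest value was in total RNA. Ndufa2, which has a thioredoxin-like fold, had 41.5 and 22.9 FPKM in total RNA, 71.3 and 322 in the light and 84.3 and 138 in the heavy fractions, and Ndufv3, a small partner of Ndufv1 and Ndufv2, had 7.07 and 7.39 in total RNA, 1.88 and 34.1 in the light and 10.1 and 12.8 in the heavy fractions. For Ndufa2 and Ndufv3 no fragment numbers could be inferred, so that their excess in WD light has no interval.

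**Figure D3:**
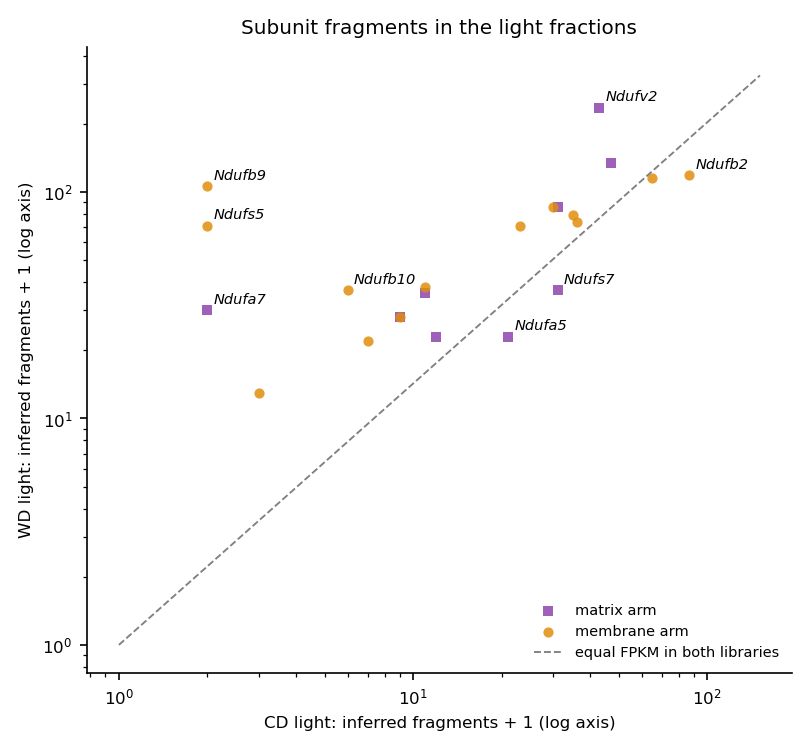
Inferred fragments plus 1 of the 22 subunits in the CD light (x) and WD light (y) library, on log axes. Squares are subunits of the matrix arm, circles those of the membrane arm, and the dashed line marks equal FPKM. Ndufb9, Ndufs5 and Ndufa7 rise far above it from 1 fragment in CD, whereas Ndufb2, Ndufs7 and Ndufa5 lie below it.

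In all, the interval of the light ratio lay above 1 for 5 of 22 subunits (8.15% of all loci), namely Ndufa7, Ndufb9, Ndufb10, Ndufs5 and Ndufv2, and below 1 for 3 (7.32% of all loci), namely Ndufa5, Ndufb2 and Ndufs7. After scaling to the same sum the same 5 lay above 1, and Ndufb11 joined the 3 below it. The 3 lower ones had ratios of 0.506 (0.263 to 0.977) for Ndufa5, 0.631 (0.474 to 0.843) for Ndufb2 and 0.552 (0.330 to 0.928) for Ndufs7. The subunits therefore did not move as a block in the light fraction. The highest of the 6 values was in WD light for 14 of the 38 complex I genes, or 36.8%, and for 20.1% of all loci. Other transcripts also stood high in this library. The erythroid markers Hba1, Hba2, Hbb and Alas2 summed to 503 FPKM in WD light and to between 17.1 and 98.5 in the other libraries, with Alas2 lower than in CD light, at 7.18 against 19.7 FPKM. Mt-nd6, a mitochondrially encoded complex I subunit, had 520 FPKM in CD and 1243 in WD light. Their part in the subunit values was not tested.

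In the heavy fraction, where mRNAs carry many ribosomes, the diets differed less. The subunits summed to 1933 FPKM in CD and 2227 in WD, and over those with fragments the ratio was 1.01 (0.902 to 1.12). The median log2 change was 0.07 with 16 higher and 14 lower, against -0.02 over all loci. A ratio of at least 1.5 was found for 8 subunits (21.7% of all loci) and of at most 0.75 for 1 (25.8%), Ndufa9, whose interval of 0.420 to 1.11 included 1. None of the 8 was a core subunit.

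The interval lay above 1 in the heavy fraction for Ndufa6 and Ndufa13 (2.97% of all loci) and below 1 for no subunit (2.89% of all loci). Ndufa6 had a heavy ratio of 2.22 (1.05 to 5.00) from 11 and 25 fragments. Ndufa13, a membrane arm subunit also known as GRIM-19, had 16.2 FPKM in CD total RNA and 16.9 in that of WD, 9.45 and 26.1 in the light, and was listed at 0 in CD and at 29.7 in WD heavy, with an interval that began at 1.15 from 0 and 6 fragments. Both results stand on few fragments in CD heavy. All 7 core subunits lay between a log2 change of -0.30 for Ndufs1 and 0.39 for Ndufs8 in the heavy fraction.

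The heavy to light ratio is the measure of ribosome density used in the study, and its WD value over its CD value is called the density change here. The median log2 density change was -0.28 over 30 subunits, with 12 higher and 18 lower, against -0.02 over all loci, and it was -0.28 over the 28 subunits above 0 in all 4 fractions. A density change of at least 1.5 was found for 8 subunits (27.7% of all loci) and of at most 0.75 for 13 (36.1%). Scaling to the same sum moved the median of all loci to 0.28 and that of the subunits to 0.05, that is 0.23 below all loci against 0.26 with the deposited values, and 10 subunits then lay at or above 1.5 (38.0% of all loci) and 10 at or below 0.75 (27.1%).

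The direction of the density change was not kept without the light libraries. With the heavy fraction set against total RNA, which leaves both light libraries out and brings both total libraries in, the median was 0.27 with 19 higher and 11 lower, against 0.00 over all loci, and 8 subunits were at or above 1.5 (26.7% of all loci) and 2 at or below 0.75 (31.0%). The interval of the density change lay above 1 for 1 subunit (4.17% of all loci) and below 1 for 2 (3.76%). The subunit above 1 was Ndufb2, at 1.98 (1.28 to 3.06). Those below were Ndufv2, at 0.399 (0.223 to 0.717), and Ndufs5, at 0.0303 (0.000508 to 0.986). After the scaling Ndufs7 joined Ndufb2 and the interval of Ndufs5 reached 1. For Ndufb2, Ndufv2 and Ndufs5 the heavy fractions differed less between diets than the light fractions.

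Among members with a mean of at least 10 FPKM, the lowest density changes after Ndufs5 were those of Ndufb9, at 0.0505 (0.000850 to 1.24), and Ndufv3, at 0.0699 with no interval. The highest, beside Ndufa13, were those of Ndufa4, at 4.39, and of the merged locus of Ndufb6, at 3.17. Ndufb6 had 111 FPKM in CD total RNA and 92.6 in that of WD, 143 and 37.4 in the light and 38.3 and 31.6 in the heavy fractions, and it is the subunit with the lowest light ratio, at 0.261. Reads of Topors cannot be told apart from those of Ndufb6 at this locus.

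In the CD libraries, more subunits of the matrix arm than of the membrane arm were higher in the heavy fraction, and the arms differed less in WD. In CD, 12 of 14 matrix arm subunits and 5 of 16 membrane arm subunits were higher in heavy than in light (50.2% of all loci). The median log2 heavy to light ratio was 1.12 in the matrix arm, -0.41 in the membrane arm and 0.01 over all loci. In WD, 8 of 14 and 6 of 16 were higher in heavy (48.5% of all loci), with medians of 0.49, -0.28 and 0.00. These WD values are those as deposited, and scaling to the same sum moved the WD median of all loci to 0.26. The 7 accessory subunits of the matrix arm had medians of 0.24 in CD, with 6 higher in heavy, and of -1.22 in WD, with 3 higher. The core subunits had medians of 1.27 in CD and 1.01 in WD, and the accessory subunits of -0.14 and -0.31. These are descriptions of 2 libraries in each diet, and the difference between the arms was not tested.

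The interval of the heavy to light ratio in CD lay above 1 for 6 of 22 subunits (12.5% of all loci), namely Ndufa9, Ndufa10, Ndufb8, Ndufs1, Ndufs7 and Ndufv1, and below 1 for Ndufa6 (13.1% of all loci). Ndufs1 had 5.64 (2.61 to 13.9), Ndufa9 4.30 (2.18 to 9.22) and Ndufv1 3.11 (2.04 to 4.89). Ndufa9, which belongs to the ubiquinone module, had 26.7 FPKM in CD total RNA and 22.6 in that of WD, 13.4 and 12.3 in the light and 57.6 and 39.6 in the heavy fractions. Ndufa10, of the membrane arm and related to nucleoside kinases, had 25.0 and 19.0 FPKM in total RNA, 15.8 and 23.1 in the light and 40.1 and 42.9 in the heavy fractions. Ndufb8, a membrane arm subunit often used as a blot marker of complex I, had 31.3 and 29.0 FPKM in total RNA, 88.9 and 85.3 in the light and 147 and 115 in the heavy fractions. These genes stood higher in heavy than in light in both diets. Ndufa6 had a ratio of 0.257 (0.120 to 0.503), with its highest values in the light fractions.

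In WD the interval lay above 1 for 7 of 22 subunits (16.2% of all loci) and below 1 for 7 (17.7%). Ndufa9, Ndufa10, Ndufs1, Ndufs7 and Ndufv1 were above 1 in both diets, at 3.21, 1.86, 2.96, 3.74 and 2.39 in WD, and Ndufa6 was below 1 in both, at 0.425 in WD. Ndufa5, at 2.18 (1.14 to 4.15), and Ndufb2, at 1.78 (1.34 to 2.35), were above 1 in WD. Those below 1 in WD beside Ndufa6 were Ndufa7, Ndufb9, Ndufb10, Ndufc1, Ndufs5 and Ndufv2, 5 of which also had a light ratio with an interval above 1. After scaling to the same sum Ndufa11 and Ndufb8 joined the subunits above 1 in WD, and the interval of Ndufa7 included 1.

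**Figure D4:**
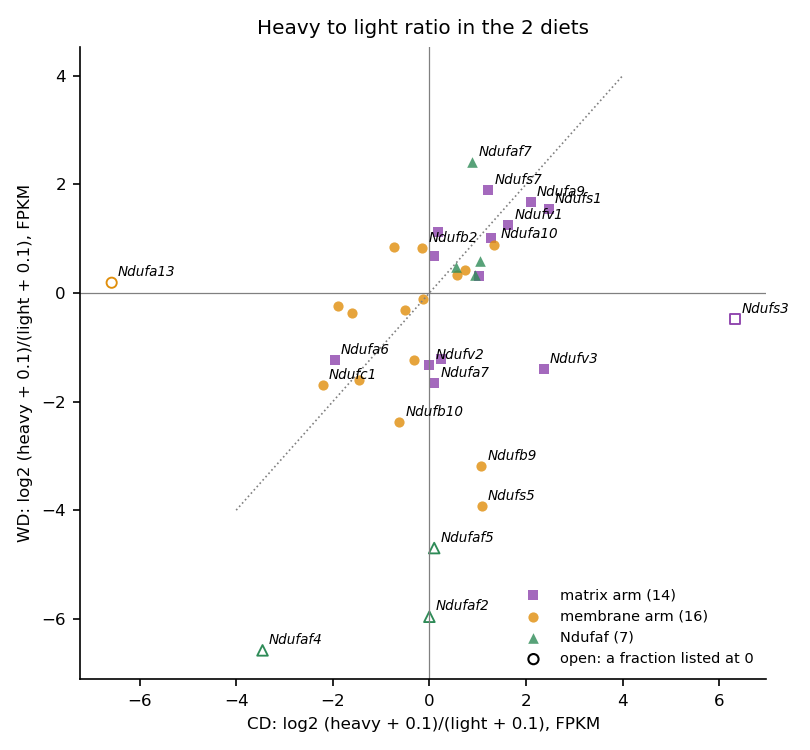
Log2 heavy to light ratio in CD (x) and WD (y) of 30 subunits and 7 assembly factors, from FPKM with 0.1 added. Squares are subunits of the matrix arm, circles those of the membrane arm, triangles the assembly factors, open symbols have a fraction listed at 0, and the dotted line marks equal ratios. Ndufs1, Ndufs7, Ndufa9, Ndufv1 and Ndufa10 sit together at the upper right, and Ndufb9 and Ndufs5 far below the line.

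Among the subunits, the heavy to light ratio went along with transcript length. A relative length was read from the FPKM that 1 fragment is worth, with the median of loci compared set to 1. It is the length by which the FPKM was scaled, and it was not compared with annotated transcript lengths. By this measure subunit transcripts were short, with a median of 0.270 and 18 of 22 among the shortest 25% of the loci, and they ran from 0.1001 for Ndufc1 to 1.24 for Ndufs1. The 9 subunits of the matrix arm with a length had a median of 0.427 and the 13 of the membrane arm 0.206, so that arm and length cannot be told apart here. Across the 22 subunits the Spearman correlation of the log2 heavy to light ratio with length was 0.71 in CD and 0.50 in WD. It was 0.68 and 0.54 without Ndufa13, and 0.89 and 0.55 over the 16 subunits with at least 10 fragments in the fractions of each diet. Over the 3327 loci within the same range of lengths it was 0.07 and 0.09. With the assembly factors included, over 29 complex I genes, it was 0.50 in CD and 0.31 in WD. The longest of these, Ndufaf4, at a relative length of 1.56, had a heavy to light ratio of 0.0767 in CD. The genes share libraries and depth, and are not independent replicates.

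**Figure D5:**
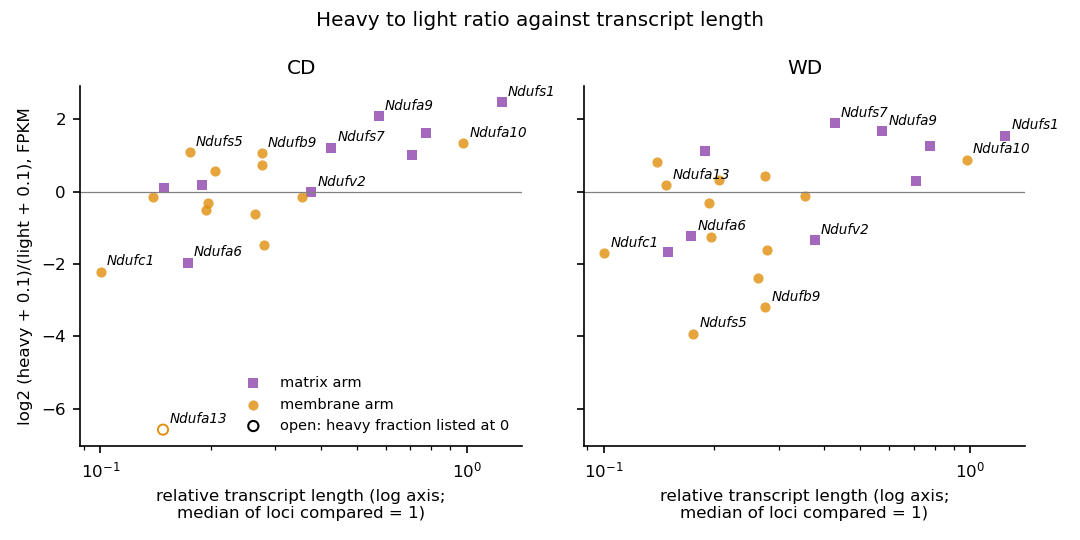
Log2 heavy to light ratio of the 22 subunits with a relative length, in CD (left) and WD (right), against relative transcript length on a log axis where 1 is the median of the loci compared. Squares are subunits of the matrix arm, circles those of the membrane arm, and the open symbol is listed at 0 in the CD heavy fraction. The longest, Ndufs1, is at the top in CD, and the shortest, Ndufc1, is low in both diets.

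The assembly factors were much scarcer, and every counting interval between the diets that could be computed for them included 1. Ndufaf1, which acts with Ecsit and Acad9 in building the membrane arm, had 12.3 FPKM in CD total RNA and 8.04 in that of WD, 12.004 and 8.97 in the light and 17.7 and 12.6 in the heavy fractions. Its ratio in total RNA was 0.653 (0.319 to 1.30). Ndufaf3 and Ndufaf4 work together on the ubiquinone module. Ndufaf3 had 8.46 and 8.21 FPKM in total RNA, 4.42 and 7.32 in the light and 8.55 and 9.27 in the heavy fractions. Ndufaf4 had 3.98 and 4.80 FPKM in total RNA, 6.27 and 9.48 in the light and 0.481 and 0 in the heavy fractions. Ndufaf3 was lowest in CD light and lay between 7.32 and 9.27 FPKM elsewhere, whereas Ndufaf4 was lowest in the heavy fractions, with 14 and 46 fragments in CD and WD light against 1 and 0 in heavy. The heavy to light ratio of Ndufaf4 was 0.0767 (0.00181 to 0.504) in CD, and its interval ended at 0.190 in WD. In this the partners differed, as Ndufaf3 had heavy to light ratios of 1.93 (0.582 to 7.34) and 1.27 (0.522 to 2.89).

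Ndufaf7, a protein methyltransferase of the mitochondrial matrix, had 2.82 FPKM in CD total RNA and 1.69 in that of WD, 2.36 and 1.08 in the light and 4.43 and 6.18 in the heavy fractions, and its heavy to light ratio was 5.70 (1.64 to 24.9) in WD and 1.88 (0.478 to 8.76) in CD. Ndufaf2, which binds a late intermediate, was listed at 0 in CD and at 1.06 FPKM in WD total RNA, at 0 and 6.14 in the light, and at 0 in both heavy fractions. It was seen in WD libraries alone, on 1 and 9 fragments. Ndufaf5, which hydroxylates Ndufs7, had 1.85 and 0 FPKM in total RNA, 2.71 and 2.496 in the light and 2.91 and 0 in the heavy fractions. Ndufaf6, which acts early in assembly, had 0 and 1.03 FPKM in total RNA, 1.44 and 1.98 in the light and 3.08 and 3.01 in the heavy fractions. Ndufaf5 and Ndufaf6 had 4 fragments at most in any library, too few to order the diets.

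Side by side, the median log2 change in total RNA was -0.04 for the 7 assembly factors and -0.01 for the subunits, and over the 4 assembly factors above 0 in both libraries it was -0.32. In the light fraction the medians were 0.44 and 0.52, and in the heavy fraction -0.03 and 0.07. The median density change was -0.60 for the assembly factors, with 1 higher and 6 lower, and -0.28 for the subunits, against -0.02 over all loci. Of the 6 lower, Ndufaf2, Ndufaf4 and Ndufaf5 had a fraction listed at 0. Ndufaf2 was at 0 in both CD fractions and so had no CD ratio, and the count of directions is not evidence of a shift. Over the 4 assembly factors above 0 in every fraction the median was -0.27. With libraries listed at 0 set to 3 fragments, the most that a count of 0 allows, the median of the 7 assembly factors was -0.07, so that its size rests on values at 0. No assembly factor had an interval off 1 between diets in any fraction.

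The 9 further assembly factors whose symbols do not start with Nduf are those found of 12 looked for, and together they had between 55.8 and 90.0 FPKM per library. Their median log2 density change was 0.98, the value of Tmem126b, with 5 higher and 4 lower, against -0.02 over all loci. Every interval of a density change that could be computed for them included 1. In the light fraction their median log2 change was -0.28, with 4 higher and 5 lower, where the Ndufaf genes had 0.44. Ecsit and Acad9, the partners of Ndufaf1, had heavy to light ratios on different sides in WD, with a log2 value of -1.08 for Ecsit and 2.67 for Acad9.

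Ndufa4, which was first counted to complex I and is now assigned to cytochrome c oxidase, had 28.5 FPKM in CD total RNA and 12.5 in that of WD, 28.5 and 10.1 in the light and 63.6 and 98.8 in the heavy fractions. It was lower in WD in total RNA and in the light fraction and higher in the heavy fraction. Its ratio was 0.440 in total RNA and 0.354 in the light fraction, with no interval, since its values were not explained by whole fragments. In the light fraction the median of the subunits was above that of all loci. Even so, 6 of the 30 subunits were at or below 0.75 there, and Ndufb6, at 0.261, was lower than Ndufa4. The remaining subunits, Ndufa8, Ndufb5, Ndufb7, Ndufb11, Ndufc2 and Ndufs4, had means between 15.97 and 104 FPKM and log2 changes in total RNA between -0.42 and 0.14. The 4 with fragments had no interval off 1 between diets with the values as deposited, and after scaling to the same sum the light interval of Ndufb11 lay below 1. Density changes of these subunits ran from 0.524 for Ndufc2 to 3.00 for Ndufa8. Ndufa8 had no interval, nor did Ndufb5, at 2.35. Ndufs4, whose loss in mice is used as a model of complex I deficiency, had no interval off 1, with 16.2 and 14.1 FPKM in total RNA, 9.86 and 15.9 in the light and 20.1 and 19.6 in the heavy fractions.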

How the data were processed

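The 42 genes and all lists were chosen with earlier results of these data known. FPKM values with lower and upper bounds for every locus were deposited, which the authors made with TopHat, Cufflinks and Cuffnorm on Rnor_6.0 after ribosomal RNA was removed; versions are not given in the labels. All 6 libraries, of 3 pooled rats each, were used, with scipy 1.17.1, pandas 2.3.3 and numpy 2.4.6 under Python 3.11.15 (figures with matplotlib 3.10.9). A locus was compared if it had a symbol, its estimates had not failed and it averaged 1 FPKM or more. A log2 change was taken after adding 0.1 FPKM, and ratios of at least 1.5 and at most 0.75 of WD over CD were counted in every comparison; the study used these numbers for ribosome density of CD against WD, so that the limits here are not its own.

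Whole fragment numbers were inferred from the FPKM, with 1 factor per library and 1 step per gene, as whole within 0.05, and were used where the upper bounds matched within 1% those of other loci with that number. In data simulated from loci already given numbers, 94.3% were given numbers, and 100% of these were right. Values were built there from whole fragments, so the simulation cannot show that real loci hold whole fragments. From the inferred numbers came 95% Clopper-Pearson intervals of ratios and conditional intervals of the density change. These cover counting error only, as PCR duplicates are not known. Relative length is the inverse of the FPKM per fragment, used because no protein lengths were at hand. Promoters came from RefSeq (GRCr8), while loci are given in Rnor_6.0.

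Values in every library are given for the core subunits (1 of which is not reported here), every Ndufaf gene, Ndufa4, the 3 highest and 3 lowest genes by mean, the 3 highest and 3 lowest by total RNA and density change among those averaging 10 FPKM or more, and genes with an interval off 1. Ndufa2 and Ndufs4 beyond this rule were chosen after their values were seen. No p-value was computed, since each condition had 1 library.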

Additional observations from a re-analysis of the deposited data

Results flagged for a closer look

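The heavy to light ratio differed between the diets beyond counting error for 3 subunits, each by an interval of the ratio between WD and CD, which compares pooled libraries and not diets. Ndufb2, the most abundant subunit, had a density change of 1.98, with 86 and 118 fragments in the CD and WD light and 72 and 92 in the heavy fractions. Ndufv2 had 0.399, with 42 and 235 fragments in the light and 39 and 41 in the heavy fractions. Ndufs5 had 0.0303, with 1 and 70 fragments in the light and 2 in each heavy fraction, and rests on the single fragment in CD light. An interval above 1 was found for 4.17% and one below 1 for 3.76% of all loci, and after scaling to the same sum the interval of Ndufs5 included 1. All 3 ratios include the WD light library, in which the summed erythroid markers and the globins Hba1, Hba2 and Hbb were highest while Alas2 was lowest. The part of that library was not tested.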

How the results depend on the processing

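Of 148 alternatives over the counts and medians of the subunits and assembly factors, 135 kept the direction, or stayed within 1.5 times for a count, 7 reversed a median and 6 moved a value. A filter at 0.1 FPKM and no filter kept the same 30 subunits and 7 assembly factors as the main setting. Their results could not differ, although they are counted among the 135. With a mean of at least 10 FPKM the median change of subunits in total RNA was 0.00011 and the ratio of subunit to assembly factor levels 4.37. With libraries scaled to the same sum, the medians became 0.082 for subunits and 0.053 for assembly factors in total RNA, 0.048 for the density change of subunits and 0.13 for their heavy to light ratio in WD, while 5 subunits were at or below 0.75 in total RNA and 9 at or above 1.5 in the light fraction. With heavy over total RNA, the median density change was 0.27 and 2 subunits were at or below 0.75. Over members with inferred fragments, an alternative chosen after seeing the data, the WD heavy to light median was 0.034, 3 subunits were at or below 0.75 in the light fraction and 5 at or above 1.5 in density change. The density change of subunits was -0.28 and the heavy to light median in WD -0.18 with the deposited values, and the cause of their reversal was not tested. With 1 library per condition no replicate could be left out and no paired analysis was possible because replicates are lacking. Genes with under 10 fragments can show only large differences.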
